A study of Mus musculus with 2 samples.

Results

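Fc receptors and the signalling chains they share were described here as 8 genes of RAW264.7 cells: the IgG receptors Fcgr1, Fcgr2b, Fcgr3 and Fcgr4, the adaptor genes Fcer1g and Tyrobp, the Tyrobp-coupled receptor Trem2, and the kinase gene Syk. They were chosen by gene name, and all 8 were found among the 24034 genes of the deposited table. RAW264.7 is a mouse monocyte/macrophage line transformed by Abelson leukaemia virus, so it is 1 established line rather than primary macrophages. Poly(A) RNA was sequenced in 2 libraries, 1 from cells given SFRS8 siRNA and 1 from cells given a negative control, which the sample title calls WT. The siRNA is named for SFRS8, which is now called Sfswap and regulates splicing. Both titles carry a 5 d mark whose starting point is not explained, and the labels name no antibody, ligand or cytokine. Each group had 1 library. The differences below therefore have no replicate check, and neither a test between the conditions nor a p-value was possible.

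IgG bound to a particle or a cell is recognised by Fc gamma receptors on macrophages. The activating receptors FcγRI, FcγRIII and FcγRIV, encoded by Fcgr1, Fcgr3 and Fcgr4, have no signalling motif of their own in the mouse and pair with the FcR gamma chain encoded by Fcer1g. That chain carries an ITAM, an immunoreceptor tyrosine-based activation motif, and so does DAP12, the product of Tyrobp, which serves Trem2 and other myeloid receptors. Src-family kinases phosphorylate the ITAM, and Syk docks on it and starts phagocytosis and cytokine production. FcγRIIb, encoded by Fcgr2b, instead carries an inhibitory motif (ITIM) and is the braking receptor of the family. In osteoclast precursors, a fate RAW264.7 cells can take, both ITAM chains provide costimulation to RANK.

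The promoters are shown because several of the receptor genes, though not Fcgr2b, hold the same short element there while their transcript levels lie far apart. RefSeq windows on GRCm38.p6, from 250 bases before to 50 bases after each start, were matched by symbol for 7 of the 8 genes, in 9 windows, since Fcgr3 and Syk have more than 1 start. They were searched for TTCCTC and its reverse complement GAGGAA, the core bound by PU.1 (encoded by Spi1), an ETS factor of myeloid cells. The 80 bases before the start of 4 genes follow, 5′ to 3′ on the gene's strand, with TTCCTC in capitals. The Fcgr1 stretch is chr3:96293970-96294049 (minus strand), that of Fcgr3 chr1:171059404-171059483 (minus strand), that of Fcgr4 chr1:171018846-171018925 (plus strand) and that of Trem2 chr17:48346321-48346400 (plus strand).
Fcgr1: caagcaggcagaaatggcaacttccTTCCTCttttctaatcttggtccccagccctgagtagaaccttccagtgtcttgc
Fcgr3: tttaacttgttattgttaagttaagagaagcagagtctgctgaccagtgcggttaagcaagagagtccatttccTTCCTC
Fcgr4: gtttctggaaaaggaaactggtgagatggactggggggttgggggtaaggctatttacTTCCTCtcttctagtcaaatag
Trem2: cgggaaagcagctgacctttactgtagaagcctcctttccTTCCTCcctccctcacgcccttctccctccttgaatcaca
TTCCTC began 55 bases before the start in Fcgr1, 22 in Fcgr4, 40 in Trem2, and 6 or 15 in Fcgr3, depending on the start used. It was found on the gene's strand in 5 of the 9 windows, against 14.7% of all 32851 windows of the same length. The windows of Fcgr3 overlap and hold the same TTCCTC. By gene the count was thus 4 of 7, for which no share over all genes was taken. With GAGGAA counted too, the count was 6 of 9 windows against 28.3% of all, the sixth being the second start of Syk. TTCCTTCCTC, the longest run around TTCCTC that the windows of Fcgr1, Fcgr3 and Trem2 share on the gene's strand, was picked after these sequences had been seen and is present in 0.259% of all windows. The windows of Fcgr2b and Fcer1g and the upstream start of Syk hold neither TTCCTC nor GAGGAA. These matches describe letters and not bound sites. Fcgr1 and Fcgr3, which both hold the longer run, differed widely in deposited level, as given below, though the level of Fcgr3 is uncertain. The part of the element in these levels was not tested. Spi1 itself stood at 74.0 FPKM (fragments normalised for exon length and library size) in the library labelled SFRS8 siRNA and 73.2 FPKM in the control.

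Fcgr2b and Fcgr3 also resemble each other in their transcripts, which bears on how reads are assigned between them. Of the Fcgr3 transcript of 1347 bases, 509 bases (37.8%) align to Fcgr2b at 96.5% identity, and no alignment at 90% identity or more was found between any other pair of the 8 genes. The transcripts share 7 exact runs of at least 20 bases, and the longest is 129 bases and spans an exon junction. The longest run inside a single coding exon, exon 4 of both genes, has 113 bases. It lies at chr1:170966560-170966672 in Fcgr2b and at chr1:171054053-171054165 in Fcgr3, both on the minus strand of GRCm38, and is printed because a read inside it fits both genes equally.
Fcgr2b and Fcgr3: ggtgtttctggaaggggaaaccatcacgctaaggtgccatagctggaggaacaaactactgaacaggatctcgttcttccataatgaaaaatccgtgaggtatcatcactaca
The values of these genes taken alone are therefore uncertain, and their sum is given beside them.

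Of the 2 libraries, the one labelled SFRS8 siRNA had 55411201 estimated counts and the control 54847367, equal to about 13852800 and 13711842 read pairs. Sfswap itself was not lower in the library labelled SFRS8 siRNA (3.38 against 2.92 FPKM), so each direction below is that of the library and not of a measured loss of Sfswap. Of 10 macrophage markers, 9 had a mean of at least 1 FPKM. Their summed level was 15415 FPKM in the siRNA-labelled and 17211 FPKM in the control library, of which Lyz2 made up 13998 and 15652 FPKM, with Mrc1 near 0. Of the 10 markers 6 were higher in the siRNA-labelled library, among them Ptprc (2.95 against 2.13 FPKM), Itgam (29.6 against 26.8 FPKM) and Mrc1 (0.019 against 0.0095 FPKM). Of the Itgam transcript, 73.8% is also found in at least 1 other gene. The other 4 markers were lower, Lyz2 and Cd68 (947 against 1067 FPKM) among them. Mast cell, B cell and NK cell markers found in the table were at or under 0.0545 FPKM, with Kit and Pax5 at 0 in both libraries. Of the T cell markers, Lck stood at 2.52 and 3.04 FPKM and Cd3d at 0. Of the neutrophil markers, S100a8 stood at 3.01 and 3.27 FPKM and Elane at 0. All 19 heart muscle markers were higher in the siRNA-labelled library (133.9 against 12.5 FPKM summed), and so were all 5 red blood cell markers in the table (8.87 against 0.114 FPKM). Fibroblast markers summed to 0.899 against 0.269 FPKM, with 5 of 7 higher, 1 (Pdgfra) lower and 1 (Lum) at 0 in both libraries. The part of these cells or RNAs in the values below was not tested. In such bulk RNA, fewer cells of a type and less RNA per cell cannot be told apart.

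The ITAM chain genes Tyrobp and Fcer1g had the highest FPKM of the 8 genes in both libraries. Tyrobp stood at 668.6 FPKM in the siRNA-labelled and 731.5 FPKM in the control library, a level above 98.9% of the 10214 genes whose mean over both libraries reached 1 FPKM, called measured genes below. Fcer1g stood at 240.2 and 246.4 FPKM, above 97.3% of those genes. Both adaptor genes were thus among the most abundant transcripts of both libraries. Trem2, which senses lipids and lipoproteins through DAP12, stood at 45.9 and 49.1 FPKM. Syk stood at 13.3 FPKM in both libraries. Fcgr1, the high-affinity IgG receptor, stood at 13.5 and 12.7 FPKM, and Fcgr4, an activating receptor of lower affinity, at 8.26 and 7.12 FPKM. Syk, Fcgr1 and Fcgr4 lay in the middle of the expressed range, with Fcgr4 above 56.0% and Syk above 69.5% of the genes. Fcgr2b stood at 1.87 and 1.48 FPKM, above 12.5% of the genes. Fcgr3 was the lowest member in both libraries, at 0.279 and 0.348 FPKM.

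**Figure D1:**
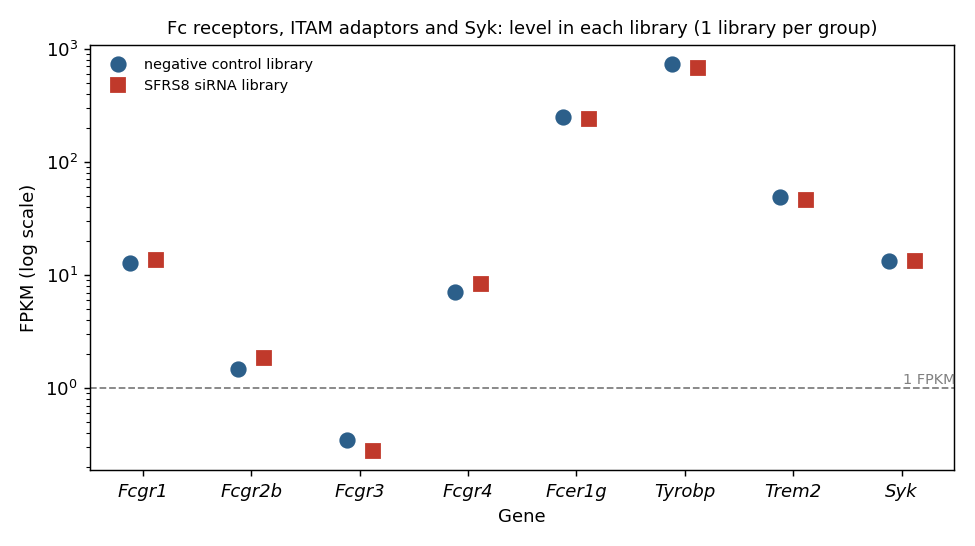
FPKM (log axis) of each of the 8 genes in the library labelled SFRS8 siRNA (squares) and the negative control library (circles), with 1 library per group and no error bars; the dashed line marks 1 FPKM. Tyrobp and Fcer1g are above 240 FPKM in both libraries, and Fcgr3 is the single gene under 1 FPKM.

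Fcgr3 rested on 31 estimated counts in the library labelled SFRS8 siRNA and on 38 in the control, about 8 and 10 read pairs. It was the 1 member under the minimum mean of 1 FPKM, so 7 of the 8 genes were measured by that rule. Fcgr2b, its nearest relative, had 666 and 524 counts. Together they had 697 and 562 counts, most of them assigned to Fcgr2b. Counts are not divided by length, so this sum gives no level to set beside those of other genes. In FPKM, Fcgr4 exceeded Fcgr3 29.6-fold in the library labelled SFRS8 siRNA and 20.5-fold in the control. With so few read pairs of Fcgr3, and with reads that fit Fcgr2b equally, these ratios are imprecise. Fcgr2b overlaps Gm38204 on the opposite strand, which had 3 counts with the siRNA label and 0 in the control, and no other member overlaps a gene of the table.

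Levels between genes depend on the length each was divided by, and Trem2 was the gene most touched by this. In both libraries the deposited FPKM equalled counts divided by the summed length of all exons of the gene in GENCODE vM21, within 2% for 99.99% of genes with at least 400 counts, after 1 scale factor per library. Trem2 has 4946 bases of such exon length, of which a single retained-intron transcript covers 4784, while its longest coding transcript has 1088 bases. Divided by the coding transcript instead, an alternative chosen after this had been seen, Trem2 stood at 208.9 in the library labelled SFRS8 siRNA and at 223.0 in the control. That is near the level of Fcer1g, at 307.4 and 315.2 on the same scale. Tyrobp stood at 747.0 and 817.3 per coding length. Syk stood at 23.2 and 23.3, and exceeded Fcgr1 1.72-fold and 1.83-fold, whereas in FPKM the order of these neighbours differed between the libraries. Fcgr2b stood at 3.05 and 2.42, and Fcgr3 at 0.360 and 0.448. Fcgr1 and Fcgr4 kept their FPKM, because their exon length equals that of the coding transcript. The order on this scale was Tyrobp, Fcer1g, Trem2, Syk, Fcgr1, Fcgr4, Fcgr2b and Fcgr3 in both libraries. The table does not show which transcripts were present.

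**Figure D2:**
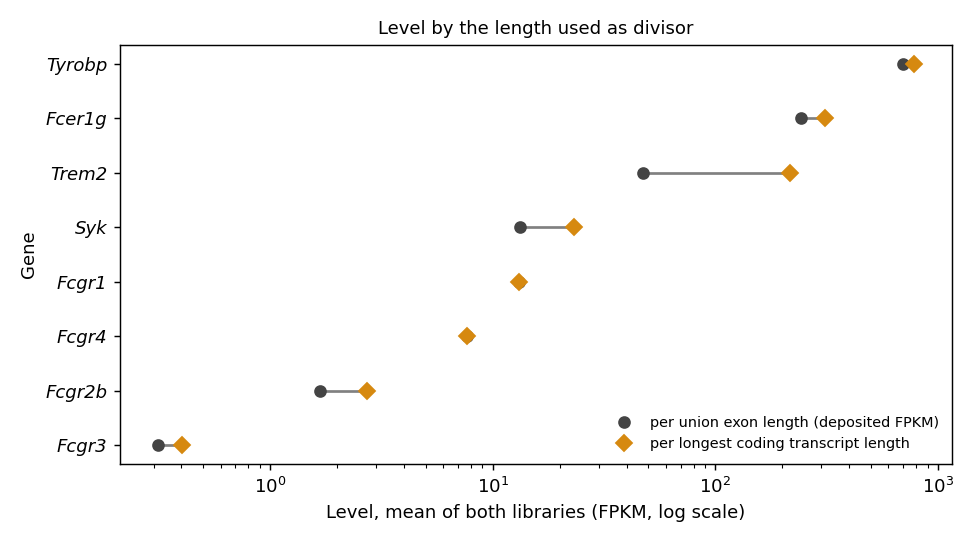
Level of each gene as the mean of both libraries (log axis), per summed exon length as deposited (circles) and per length of the longest coding transcript (diamonds). Trem2 moves from 47.5 to 216, Syk from 13.3 to 23.2, and Fcgr1 and Fcgr4 do not move.

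Set against each other within a library, the activating receptors outweighed the inhibitory one and the adaptors outweighed both. Fcgr1, Fcgr3 and Fcgr4 summed to 22.0 FPKM in the siRNA-labelled and 20.1 FPKM in the control library. Their sum was 11.8 times and 13.6 times Fcgr2b in FPKM, and 7.25 and 8.37 times per coding length. In read pairs, which are not divided by length, the activating sum and Fcgr2b had 702 and 166 with the siRNA label and 644 and 131 in the control. The odds ratio of these pairs, siRNA-labelled over control, was 0.860. Its 95% exact interval, which covers counting error only, ran from 0.662 to 1.12. A shift between activating and inhibitory receptors was thus not detectable at this depth. Fcer1g was 10.9 and 12.2 times the activating sum in FPKM. Tyrobp was 2.78 and 2.97 times Fcer1g, and 14.6 and 14.9 times Trem2 in FPKM, but 3.58 and 3.66 times Trem2 per coding length. These are ratios of transcripts and not of proteins.

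Between the libraries none of the genes differed by much. None of the 7 measured genes reached 2-fold, where 1.97% of all 10214 measured genes did, and none reached 1.5-fold, where 7.09% of all genes did. Differences are those of log2(FPKM + 1), the siRNA-labelled value minus that of the control, a scale that understates low genes. They ran from -0.13 for Tyrobp to 0.21 for Fcgr2b, with a median of -0.0037 over the 7 genes, against a median of 0.11 over all measured genes and a middle 50% from -0.054 to 0.29. Of the 7 genes, 4 were below 0, against 33.1% of all genes, and 5 were below the median of all genes. As TPM, 5 of the 7 genes and 73.0% of all genes were above 0, and the median of the 7 was 0.043, where that of all genes was 0.16.

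In FPKM the 3 most abundant genes lay slightly below equality, and 2 of them, Tyrobp and Trem2, beyond counting error. Tyrobp had 27354 counts in the library labelled SFRS8 siRNA and 29650 in the control, a ratio per total of 0.913 (95% exact interval 0.884 to 0.944, counting error only). Trem2, its partner, had 13941 and 14748 counts, a ratio of 0.936 (0.893 to 0.980). Those were the 2 genes of the 8 whose interval left out 1, both lower, where the intervals of 12.9% of all genes lay below and 39.4% above 1. Fcer1g had 12880 and 13084 counts, a ratio of 0.974 (0.928 to 1.023), an interval that contains 1. Among the 1082 genes at least as abundant as Trem2 the median difference was -0.052 and the middle 50% ran from -0.17 to 0.095. The differences of Tyrobp (-0.13), Trem2 (-0.093) and Fcer1g (-0.036) all lay inside that range.

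Syk and the 4 IgG receptors had intervals that contained 1. Syk had 7635 and 7583 counts, a ratio of 0.997 (0.935 to 1.06), and 0.959% of all measured genes had a smaller absolute difference. Fcgr1 had 2140 and 1996 counts, a ratio of 1.06 (0.938 to 1.201). Fcgr4 had 636 and 544 counts, a ratio of 1.16 (0.915 to 1.47). These 3 genes were thus within counting error of equality. Fcgr2b had the largest difference of the measured genes, 0.21, with 666 and 524 counts and a ratio of 1.26 (0.991 to 1.59). Fcgr3 had a ratio of 0.807 with an interval from 0.272 to 2.23, too wide to place it. The counts of Fcgr2b and Fcgr3, the pair with shared sequence, summed to 697 and 562, a ratio of 1.23 (0.979 to 1.55). That interval contains 1. With Fcgr4 added, which did not align to either, the counts were 1333 and 1106, a ratio of 1.19 (1.015 to 1.41). The median ratio over all measured genes was 1.09, inside both intervals. The 5783 genes between the levels of Fcgr2b and Fcgr1 had a median difference of 0.15, close to the 0.19 of Fcgr4 and the 0.21 of Fcgr2b.

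**Figure D3:**
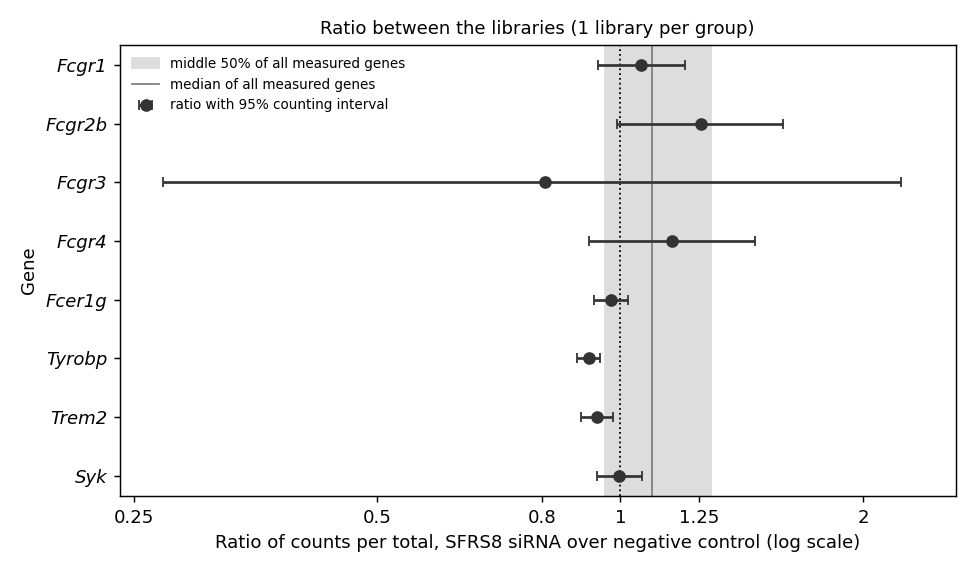
Ratio of counts per total, siRNA-labelled over control library (log axis), for each gene with its 95% exact counting interval; the grey band is the middle 50% of all measured genes, 0.957 to 1.296, and the grey line their median, 1.09. The intervals of Tyrobp and Trem2 lie below 1 and that of Fcgr3 spans 0.272 to 2.23.

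Of the 7 measured genes, Fcgr2b, Fcgr4 and Fcgr1 were above 0 and Syk, Fcer1g, Trem2 and Tyrobp below 0, but as TPM (FPKM rescaled to the same sum in each library) Syk was at 0.043 and Fcer1g at 0.012. Across all measured genes the difference had a Spearman rho of -0.22 with mean FPKM and of -0.46 with the GC content of the longest transcript, as descriptions over genes that share 2 libraries. Fcgr2b, the gene with the highest difference, had the lowest GC content, 45.4%, and Tyrobp, with the lowest difference, had the highest, 54.8%. Adjusted for the GC trend, the differences were 0.076 for Fcgr2b and -0.023 for Tyrobp, 0.14 for Fcgr1 and Fcgr4, 0.095 for Syk, 0.022 for Fcer1g and -0.052 for Trem2. With that adjustment 5 of the 7 genes were above 0, as were 70.4% of all genes, and without it 3 were, against 66.9% of all genes. The part of GC content in the differences was not tested otherwise.

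**Figure D4:**
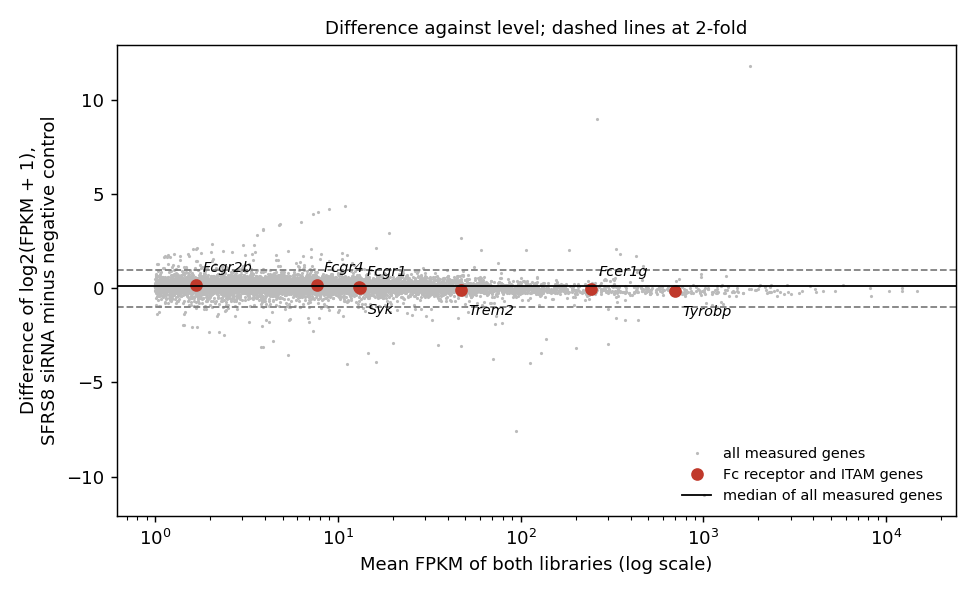
Difference between the libraries in log2(FPKM + 1), with values above 0 higher under the siRNA label, against mean FPKM (log axis) for 10214 measured genes (grey) and the 7 measured Fc receptor and ITAM genes (red); dashed lines mark 2-fold and the black line the median of all genes, 0.11. The 7 genes lie between -0.13 and 0.21.

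The surrounding pathway was read from 7 gene lists, in which 110 of 129 listed genes were in the table and 73 were measured. None of the 73 reached 2-fold, against 1.97% of all genes; 47 were above 0, as were 66.9% of all genes, and the median was 0.11, as over all genes. The heart muscle and red blood cell markers given above were higher in the same library, as was the summed level of the fibroblast markers, of which 5 of 7 were higher. Their part was not tested.

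Kinases that act beside Syk differed by small amounts in both directions, with 4 of 8 above 0 and a median of 0.085. That median was 0.24 over the genes with at least 5 FPKM. With no filter on FPKM it was -0.019, a value set by genes near 0 FPKM, whose differences log2(FPKM + 1) holds near 0. Btk, a Tec-family kinase, stood at 10.6 FPKM with the siRNA label and 8.06 FPKM in the control, a ratio of counts of 1.32 (1.15 to 1.51). Tec stood at 3.68 and 2.81 FPKM (1.31, 1.06 to 1.62). Lyn, the Src-family kinase with the highest level of the list, stood at 27.3 and 22.8 FPKM (1.198, 1.12 to 1.29), with 30.3% of its transcript also found in another gene. The intervals of these 3 kinases thus lay above 1, where those of 39.4% of all genes did. These 3 were named for the largest differences of the list, so that share is no fair comparison for them. Intervals of other kinases of the list lay above, across or below 1.

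Among adaptors and effectors below Syk, 21 of 28 genes were above 0 and the median was 0.14. Grb2, an adaptor that links receptors to Ras, stood at 52.3 and 26.5 FPKM, with a ratio of counts of 1.97 (1.84 to 2.12), but 24.1% of its transcript is also found in other genes, and on the TPM scale or after adjustment for GC content it passed 2-fold. Rac1, a GTPase of actin remodelling, stood at 43.7 and 24.2 FPKM (1.80, 1.70 to 1.92). Map3k7, the kinase TAK1, stood at 5.53 and 3.69 FPKM (1.49, 1.31 to 1.71). These 3 had the largest differences of the list, all higher in the siRNA-labelled library. The most abundant were Rac2, the haematopoietic Rac, at 331.2 and 365.6 FPKM (0.905, 0.886 to 0.925) and Mapk3, the kinase ERK1, at 147.8 and 160.1 FPKM (0.923, 0.888 to 0.959). Rac1 and Rac2 thus lay on opposite sides of equality.

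Inhibitory phosphatases, adaptors and ubiquitin ligases had 8 of 13 genes above 0 and a median of 0.029, or 0.13 after adjustment for GC content. Ptpn6, the phosphatase SHP-1 recruited by ITIMs, stood at 130.1 and 102.2 FPKM (1.27, 1.22 to 1.32). Ubash3b, a phosphatase that acts on Syk-family kinases, stood at 2.43 and 1.57 FPKM (1.54, 1.27 to 1.88). Inppl1, the lipid phosphatase SHIP2, stood at 20.8 and 27.6 FPKM (0.754, 0.712 to 0.799), the lowest difference of the 73 genes at -0.39. Dok1, an adaptor of inhibitory signalling, stood at 38.6 and 38.8 FPKM.

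The list of ITIM receptors and their relatives, not all of which carry the motif, had a median of 0.36, with 7 of 11 above 0. Milr1, an inhibitory receptor known from mast cells, stood at 27.8 and 17.2 FPKM (1.61, 1.46 to 1.78). Lilr4b stood at 7.03 and 4.84 FPKM (1.45, 1.28 to 1.65), with 28.2% of its transcript also found in another gene, and Clec12a at 5.86 and 4.21 FPKM (1.39, 1.21 to 1.60). Cd72, the most abundant, stood at 52.2 and 53.0 FPKM (0.985, 0.934 to 1.04). The median of this list was 0.16 after adjustment for GC content, where that of all genes stayed 0.11. Over the genes with at least 5 FPKM it was 0.18. With no filter on FPKM it was 0.069, the value of a gene under 1 FPKM, where log2(FPKM + 1) keeps differences small.

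The list of other receptors that couple to FcR gamma or DAP12 had 6 of 10 genes above 0 and a median of 0.070. After adjustment for GC content the median was -0.078. Not all receptors of the list pair with either chain directly. Itgb2 (the beta 2 integrin chain) stood at 140.8 and 162.4 FPKM (0.866, 0.838 to 0.895) and Csf1r (the receptor of macrophage colony-stimulating factor) at 114.1 and 133.0 FPKM (0.857, 0.834 to 0.880). Cd300c2 stood at 7.93 and 9.95 FPKM (0.797, 0.639 to 0.987) and Clec4e, the Mincle receptor of mycobacterial glycolipid that signals through FcR gamma, at 5.24 and 4.26 FPKM (1.23, 1.06 to 1.43). The 2 most abundant genes of the list were lower, as Tyrobp was, but 6 of its 10 measured genes were higher. Of other Fc receptors, Fcgrt, the neonatal Fc receptor that recycles IgG, stood at 9.64 and 11.5 FPKM (0.840, 0.721 to 0.981) and Fcrl1 at 5.08 and 5.45 FPKM (0.931, 0.786 to 1.10). Hcst, encoding the adaptor DAP10 and lying next to Tyrobp, was the 1 measured gene of the list of other ITAM or related chains. It stood at 4.74 and 4.61 FPKM, a small fraction of the level of Tyrobp.

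**Figure D5:**
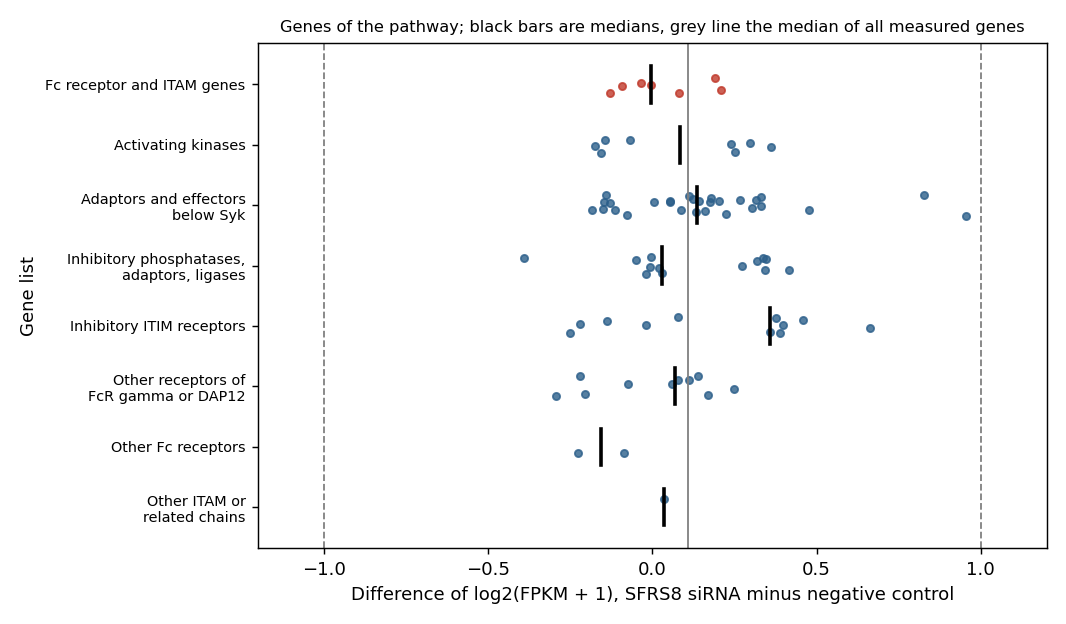
Difference between the libraries in log2(FPKM + 1), with values above 0 higher under the siRNA label, for the 7 measured Fc receptor and ITAM genes (red) and the measured genes of 7 pathway lists (blue); black bars are medians, the grey line is the median of all measured genes, 0.11, and dashed lines mark 2-fold. No gene passes 2-fold, and Grb2 and Rac1 lie farthest out at 0.95 and 0.83.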

How the data were processed

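The deposited table gives, per the file headers, FPKM and counts of each gene in 2 libraries of RAW264.7 poly(A) RNA, 1 per group by the treatment labels. HISAT2 2.0 and StringTie 1.3.0 were used, per the submitters' processing notes. Neither the genome build nor the annotation or strandedness is stated in the labels. Every one of the 24034 identifiers is in GENCODE vM21 (GRCm38), 21651 with identical coordinates, Tyrobp differing by its end. Deposited FPKM is normalised by the authors for exon length and library size. The deposited counts were treated as estimated counts: of values from 1 to 20, 45.1% and 42.7% were multiples of 4, so 1 read pair was taken as 4 counts.

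Differences are those of log2(FPKM + 1), the siRNA-labelled value minus that of the control. A gene counted as measured when its mean reached 1 FPKM. Intervals are exact Clopper-Pearson limits at 95% on counts divided by 4 and cover counting error only. With 1 library per group no test was possible. The rule of size was checked on simulated data with counting noise and planted changes only. Those data held no variation between cultures and no GC trend, so they do not show how often the rule calls genes here. Members, lists and rules were chosen with earlier results of these data known. The text names all 8 members, Sfswap and, from each list, the 2 most abundant genes and the 3 of largest difference, of which 1 gene is not reported here. The genes of marker lists, and Spi1, were named beside these. Where a symbol occurs more than once, the more abundant gene was used. Shared sequence means at least 98% identity over at least 100 bases (blastn 2.17.0), searched with the longest coding transcript. GC adjustment used lowess with a span of 0.3. Alternatives were other pseudocounts, scalings, filters, a 1.5-fold limit, GC adjustment, summed receptor counts and coding length. Software was statsmodels 0.14.6, scipy 1.17.1, pandas 2.3.3, numpy 2.4.6 and matplotlib 3.10.9 under Python 3.11.15.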

Additional observations from a re-analysis of the deposited data

How the results depend on the processing

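No gene of the 8 reached 2-fold or 1.5-fold under any alternative run. Other values moved as follows. Centred on the median of all genes (a shift of 0.11), the differences were -0.15 for Fcer1g, -0.24 for Tyrobp, -0.20 for Trem2 and -0.11 for Syk and for the median of the measured genes, and that of Fcgr1 turned to -0.028. As TPM, the difference of Tyrobp was -0.081, and directions turned for Fcer1g (-0.036 to 0.012), Syk and the median of the measured genes (both -0.0037 to 0.043). With the GC adjustment the difference of Tyrobp was -0.023, and directions turned for Fcer1g (to 0.022), Syk (to 0.095) and the median of the measured genes (to 0.076). Of the pathway lists, 1 gene (Grb2) passed 2-fold as TPM and 1 (Grb2) with the GC adjustment, and 3 of 73 (Grb2, Rac1 and Milr1) passed 1.5-fold, against 2.77%, 2.04% and 7.09% of all genes. The median of the list of ITIM receptors and relatives was 0.16 with the GC adjustment, 0.18 at 5 FPKM or more and 0.069 with no filter on FPKM. The order of the lists by median thus depends on these settings. Medians with no filter take in genes near 0 FPKM, whose differences log2(FPKM + 1) holds near 0. The median of other FcR gamma or DAP12 receptors was -0.078 with the GC adjustment and -0.0067 at 5 FPKM or more. That of the activating kinases was 0.24 at 5 FPKM or more and -0.019 with no filter. That of the inhibitory phosphatases was 0.13 with the GC adjustment and 0.0085 at 5 FPKM or more, and that of other Fc receptors -0.010 with no filter. Centred, the medians of the activating kinases (-0.025), inhibitory phosphatases (-0.081) and other receptors (-0.040) lay below 0. So did Hcst (-0.075), the 1 measured gene of the list of other ITAM or related chains. The cause was not tested. Per longest coding transcript, mean levels were 2.73 for Fcgr2b, 311.3 for Fcer1g, 782.1 for Tyrobp, 216.0 for Trem2 and 23.2 for Syk. Depth limits Fcgr3 most, at about 8 and 10 read pairs. No paired analysis was possible because each group has 1 library.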
